A study of Mus musculus with 3 samples.

Results

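The immediate early and stress-response genes described here are 40 mouse genes given as a list, which was chosen with earlier results of these data known. All 40 were found by symbol among the 32285 genes counted in 3 single-cell RNA-seq libraries of the adventitia, the outermost coat of the aorta. The Vehicle library came from mice given saline, the AngII library from mice given angiotensin II, a peptide hormone that raises blood pressure, and the AngII_VWR library from mice given angiotensin II with voluntary wheel running. The series lists 9 mice, 3 per group, in 1 library per group, and how the mice of a group were combined is not given in the sources used here. Mouse strain, age, dose and length of treatment are not given there either. In every group the adventitia was peeled from the aorta and digested at 37 °C with a collagenase blend (Liberase) and elastase, 20 min in a water bath and 40 min on a rotator, then strained and treated with red cell lysis buffer for 5 min. All groups share that warm digestion, so what part of a level it set cannot be told apart here. With 1 library per group there are no replicates and no test between groups. Every interval below covers counting error only, and every difference is one between libraries.

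Immediate early genes are transcribed within minutes of a stimulus from factors already present in the cell, without new protein synthesis. Growth factors, hormones, mechanical load and enzyme digestion of tissue are all known stimuli. Serum response factor acts on them through a sequence called the CArG box, CREB through the cyclic AMP response element and NF-kappa-B through its own site. The products fall into factors that carry the response on (the AP-1 proteins Fos and Jun and their relatives, the zinc finger proteins of the Egr and Klf families, the Nr4a orphan nuclear receptors, Myc and the C/EBP proteins) and proteins that shut it down. Among the latter, Zfp36 and Zfp36l1 bind AU-rich messages and speed their decay, the Dusp proteins are phosphatases of MAP kinases, and Nfkbia and Tnfaip3 restrain NF-kappa-B.

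The sequence just before the start of 32 of the 40 members could be taken from a RefSeq promoter table of GRCm38.p6, and 4 of them are shown because the results below turn on these genes and because they hold the sites named above. Each runs 5′ to 3′ on the gene's strand and ends where the annotated transcript begins, or before the next annotated exon of the gene, and capitals mark a CRE core (TGACG), an AP-1 site (TGANTCA), a CArG box or an NF-kappa-B site on either strand. Fos lies at chr12:85473640-85473889 (plus strand), Nfkbia at chr12:55492648-55492897 (minus), Tnfaip3 at chr10:19015411-19015547 (minus) and Dusp5 at chr19:53528895-53529108 (plus).
Fos: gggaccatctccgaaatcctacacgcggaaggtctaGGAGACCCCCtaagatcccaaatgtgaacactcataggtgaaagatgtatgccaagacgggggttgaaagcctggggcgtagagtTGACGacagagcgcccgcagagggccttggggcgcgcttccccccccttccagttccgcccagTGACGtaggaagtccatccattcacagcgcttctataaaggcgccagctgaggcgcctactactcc
Nfkbia: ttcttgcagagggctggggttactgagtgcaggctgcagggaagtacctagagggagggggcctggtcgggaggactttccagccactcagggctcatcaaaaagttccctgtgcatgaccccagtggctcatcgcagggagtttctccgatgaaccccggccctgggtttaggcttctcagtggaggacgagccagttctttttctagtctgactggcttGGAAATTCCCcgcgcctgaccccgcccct
Tnfaip3: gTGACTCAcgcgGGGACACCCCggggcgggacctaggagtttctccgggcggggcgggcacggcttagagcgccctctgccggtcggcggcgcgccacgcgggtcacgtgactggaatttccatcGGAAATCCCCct
Dusp5: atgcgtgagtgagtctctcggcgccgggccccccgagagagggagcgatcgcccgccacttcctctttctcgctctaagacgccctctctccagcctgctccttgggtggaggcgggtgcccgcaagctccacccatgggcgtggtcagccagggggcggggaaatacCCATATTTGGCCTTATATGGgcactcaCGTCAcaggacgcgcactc
Fos carries a CRE core 66 bases and another 129 bases before its start, and Nfkbia an NF-kappa-B match at 29 bases. Tnfaip3 has NF-kappa-B matches at 12 and 125 bases beside an AP-1 match at 136 bases, counted from 1 of its 2 RefSeq start sites. That stretch lies inside the gene as annotated, whose 5′ end is at chr10:19015657. Of the 250 bases before that start, 113 were left out because they reach into an annotated exon. Dusp5 has CArG boxes that touch each other, at 82 and 72 bases before its RefSeq start. That start lies 36 bases past the end of the Dusp5 stretch printed here. Over the 250 bases before the start, the CRE core was present at 24 of the 42 start sites of these 32 members (57.1%) and in 17.8% of all 32851 promoters of the table. The NF-kappa-B site was present at 7 start sites (16.7%) against 3.90% of promoters, the CArG box at 6 (14.3%) against 1.47%, and the AP-1 site at 3 (7.14%) against 6.75%, a share near that of all promoters. Start sites of 1 gene can share sequence, and the 6 with a CArG box belong to only 3 genes, Egr2, Zfp36 and Dusp5 (9.4% of the 32 members). A match is a description of these letters and not of binding.

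Barcodes were sorted into 4 classes by the genes that define them, and 2 of them are checked here on markers that the sorting did not use. Col3a1 had 4106 to 9004 CPM (UMIs of a gene per 1e+06 UMIs of the class) in the fibroblast class and 157 to 395 CPM in the macrophage class, and Pdgfra 205 to 259 and 4.68 to 18.4 CPM. Mrc1 had 2155 to 2292 CPM in the macrophage class and 8.59 to 31.8 CPM in the fibroblast class, and Csf1r 742 to 1092 and 8.77 to 20.1 CPM. A barcode counted as fibroblast where Col1a1, Col1a2, Dcn and Lum took at least 1% of its unique molecular identifiers (UMIs, each 1 captured RNA molecule) and as macrophage where C1qa, C1qb and C1qc took at least 0.3%. Lymphoid barcodes had at least 0.2% and endothelial barcodes at least 0.3% in their marker lists. Of 13861 (Vehicle), 9899 (AngII) and 19019 (AngII_VWR) barcodes kept, 7424, 6590 and 12927 were fibroblast and 2791, 2064 and 3452 were macrophage. The lymphoid class held only 212, 88 and 105 barcodes and the endothelial class 73, 159 and 84. Depth differed: the median fibroblast barcode held 10431, 13346 and 4745 UMIs in the same order. The AngII_VWR library, counted with another version of Cell Ranger, thus stood apart in depth, and also in RNA carried between classes, since the 4 fibroblast genes reached 5.49% of their fibroblast level in its macrophage class against 3.36% in Vehicle and 1.33% in AngII. Barcodes of no class made up 22.9%, 8.44% and 10.0% of those kept, and 44 to 80 barcodes were shared between any 2 libraries. Levels are compared between libraries and classes and not between genes.

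The 40 members together took several percent of all RNA molecules in both large classes, and the library in which they were highest differed between the classes. In fibroblasts their summed level was 30743 CPM in Vehicle, 34971 in AngII and 25813 in AngII_VWR. In macrophages it was 39360 (Vehicle), 26894 (AngII) and 27477 (AngII_VWR). The order of the libraries was therefore AngII first in fibroblasts and Vehicle first in macrophages. The endothelial sum was 32003, 29407 and 16692 CPM in the same order of libraries, and the lymphoid sum 9982, 11863 and 17208. Counted member by member, AngII was the highest of the 3 libraries for 26 of 39 members measured in fibroblasts (19% of all genes) and AngII_VWR the lowest for 23 (28.7% of all genes). In macrophages Vehicle was the highest for 23 of 40 members (23.9% of all genes) and AngII the lowest for 19 (46% of all genes, so a share near the background). In the lymphoid class AngII_VWR was the highest for 29 of 39 members (31.1% of all genes), and in the endothelial class it was the lowest for 21 of 40 (29.6% of all genes). The plot of levels shows every member in both classes.

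**Figure D1:**
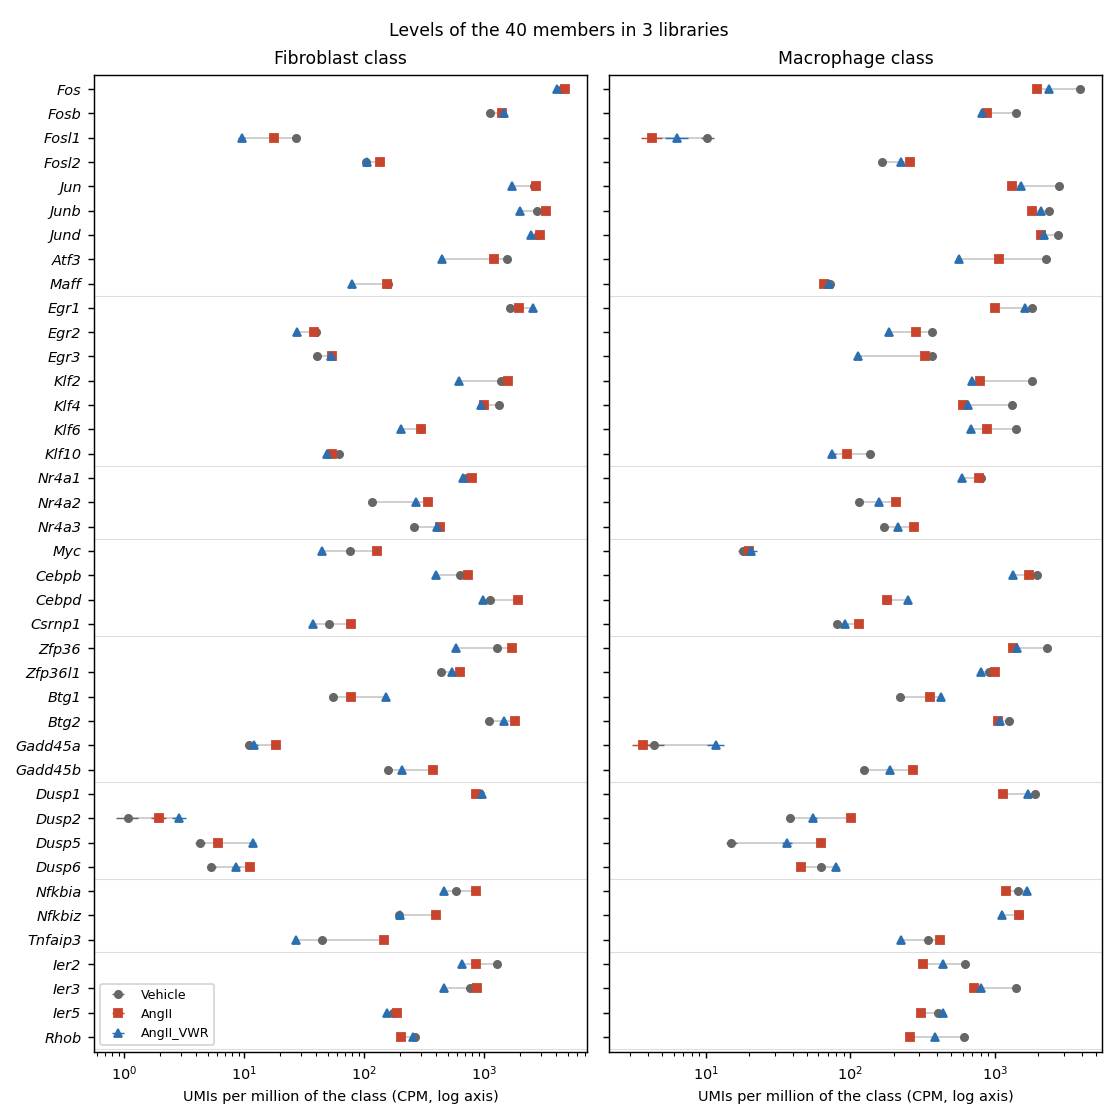
Level of each of the 40 members in the fibroblast class (left) and macrophage class (right), in CPM on a log axis, 1 symbol per library with its 95% Poisson interval (mostly narrower than the symbol) and horizontal rules between role groups. Tnfaip3 in fibroblasts runs from 27.2 in AngII_VWR to 147 in AngII, while in macrophages Fos, Jun, Klf2 and Klf4 stand highest in Vehicle.

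In fibroblasts, Tnfaip3, Nr4a2, Gadd45b and Nfkbiz were at least 2.04-fold higher in the AngII library than in Vehicle, while Fos and Jun were near their Vehicle level. A member was counted as higher or lower where the log2 ratio of CPM + 1 passed 1.5-fold, among members with at least 5 CPM in either library. In AngII against Vehicle, 11 of 39 measured members were higher (6.8% of all measured genes) and 0 were lower (5.03% of all genes). Among the 34 members with at least 50 CPM in either library 9 were higher (7.88% of such genes) and 0 lower (6.3%). The median log2 ratio was 0.25 over the members and -0.08 over all genes. Tnfaip3, the ubiquitin-editing enzyme A20 that ends NF-kappa-B signalling, had 44.4 CPM in Vehicle, 147 in AngII and 27.2 in AngII_VWR. It was 3.31-fold higher in AngII than in Vehicle (95% counting interval 3.19 to 3.43), the largest ratio of any member in this class. Nfkbiz, an atypical I-kappa-B protein, had 195 CPM in Vehicle and 398 in AngII. Nfkbia, I-kappa-B alpha, was higher by 1.47-fold (579 to 851 CPM), just short of the count. All 3 NF-kappa-B regulators thus stood higher in the AngII library.

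Among the orphan nuclear receptors, Nr4a2 had 116 CPM in Vehicle and 341 in AngII, 2.94-fold more (2.87 to 3.00). Nr4a3 had 259 and 431 CPM, whereas Nr4a1, with 711 and 797 CPM, stayed within 1.5-fold. The growth arrest genes showed the same direction: Gadd45b, a stress sensor upstream of p38 kinase, went from 158 to 373 CPM and Btg2, an antiproliferative factor that recruits the deadenylase complex, from 1109.8 to 1818 CPM. Cebpd, a C/EBP factor of the acute phase response, had 1129.9 CPM in Vehicle and 1918 in AngII. Myc, the growth factor-induced regulator of ribosome and nucleotide synthesis, had 76.7 and 128 CPM, and Csrnp1 50.9 and 77.5 CPM, which is 1.52-fold and so only just counted. The other counted members, Gadd45a (10.9 to 18.6 CPM) and Dusp6 (5.34 to 11.2 CPM), were low in both libraries. Fos itself had 4495 CPM in Vehicle and 4701 in AngII, and Jun 2611 and 2690.3 CPM, which is 1.05-fold and 1.03-fold. The members furthest below Vehicle were Fosl1 (26.9 to 17.7 CPM, log2 ratio -0.58) and Ier2 (1283 to 862 CPM, -0.57), both just inside the limit, which is set on CPM + 1 (as a plain ratio of CPM, Fosl1 was 1.52-fold lower). None of the 9 AP-1 members and none of the 7 zinc finger factors was counted in either direction.

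In macrophages 5 of 9 AP-1 members and 4 of 7 zinc finger factors were lower in AngII than in Vehicle, Fos, Jun, Klf2 and Klf4 among them. Of 39 measured members 14 were lower in AngII than in Vehicle (9.59% of all genes) and 7 were higher (6.18%). With at least 50 CPM in either library, 13 of 37 were lower (6.96% of such genes) and 7 higher (7.13%). The median log2 ratio was -0.35 over the members and -0.03 over all genes. Fos had 3873 CPM in Vehicle, 1965 in AngII and 2377 in AngII_VWR, so it was 1.97-fold lower in AngII (1.95 to 1.99). Its partner Jun had 2800.0, 1323 and 1523 CPM. Atf3, a stress-induced repressor of inflammatory genes, had 2251, 1077 and 566 CPM, lower in AngII than in Vehicle and lower again in AngII_VWR. Fosb was lower in AngII by 1.58-fold (1406 to 889 CPM), while Junb and Jund were within 1.5-fold.

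Of the Klf factors 3 were counted as lower. Klf2, known for holding monocytes and endothelium in a quiescent state, had 1818 CPM in Vehicle and 793 in AngII, 2.29-fold lower (2.26 to 2.32). Klf4 had 1321 and 606 CPM, and Klf6 1403 and 888. Egr1, the zinc finger factor induced by serum and MAP kinase, was lower by 1.79-fold (1806 to 1009 CPM). Of the shut-off genes, Zfp36 (2290.0 to 1346 CPM) and Dusp1 (1886 to 1151 CPM), the phosphatase of p38 and JNK, were lower too. Rhob, a small GTPase of endosomes, had 617 and 258 CPM, Ier3 1400.0 and 724 CPM, and Ier2 620.0 and 319 CPM. Fosl1 (10.3 to 4.26 CPM) was the remaining lower member.

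Against that direction, 7 members were higher in the AngII macrophages. Dusp5, a nuclear phosphatase specific for ERK, had 15.1 CPM in Vehicle, 62.6 in AngII and 36.5 in AngII_VWR, which is 4.15-fold higher in AngII (3.78 to 4.56) and the largest ratio of a member in this class. Dusp2, a related phosphatase of immune cells, had 38.5, 101 and 55.7 CPM. Gadd45b (125 to 270.2 CPM), Nr4a2 (115 to 208 CPM) and Nr4a3 (170.1 to 276 CPM) were higher as they were in fibroblasts. Btg1 (221 to 359 CPM) and Fosl2 (167 to 259 CPM) completed the group. Gadd45b, Nr4a2 and Nr4a3 were the members counted as higher in both large classes. In barcodes of 3000 to 10000 UMIs the macrophage log2 ratio of Nr4a2 was 0.19, that of Fosl2 0.31 and that of Btg1 0.54, all below the limit.

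Several other values moved with the macrophage ratios, and their part in these was not tested. The 3 monocyte markers summed to 23.5 CPM in the Vehicle macrophage class, 179 in AngII and 113 in AngII_VWR, with none at 0. Barcodes with at least 0.1% of UMIs in the resident macrophage genes Lyve1, Folr2, Cd163, F13a1 and Timd4 made up 96.7%, 79.4% and 85.3% of the class. Within that resident part Fos still differed by a log2 ratio of -0.96, and in the other macrophages by -1.06. Dusp5 differed by 1.82 in the resident part and by 0.34 in the others, where Vehicle had 93 barcodes only. Members at least 1.5-fold higher numbered 6 in the resident part and 0 among these other macrophages, and members lower numbered 14 and 19. The share over all genes is not given for these parts, so the counts are not set against a background. The 4 smooth muscle markers summed to 465, 43.8 and 90.2 CPM in the macrophage class, the 5 erythroid markers to 3349, 664 and 551, and the nuclear RNAs Malat1 and Neat1 to 23083, 13403 and 18755. In the fibroblast class the smooth muscle sums were 376, 145 and 181 CPM and the erythroid sums 2463, 626 and 255. Heat shock genes, which digestion also induces, were lower in AngII macrophages for 9 of 11 (9.59% of all genes), with Hspa1a at 1241, 474 and 424 CPM.

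Set side by side within each library pair, the fibroblast ratio lay above the macrophage ratio for 35 of 38 members measured in both (45.4% of all genes) in AngII against Vehicle. It lay above by at least 1.5-fold for 21 members (10.8% of all genes) and below by that much for 1 (3.95%), which was Dusp5. The median difference of the 2 log2 ratios was 0.61 over the members and -0.04 over all genes. Both classes come from the same 2 libraries, so only a scaling common to both classes of a library drops out of this difference. RNA carried between classes, class makeup and barcodes with a low member share can act unequally on the classes. Their part in this difference was not tested. In AngII_VWR against AngII the sign turned: the fibroblast ratio lay above for 10 of 39 members (36.5% of all genes), above by 1.5-fold for 3 (3.9%) and below by 1.5-fold for 17 (10%). The AngII library enters both comparisons, which are therefore not independent of each other.

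**Figure D2:**
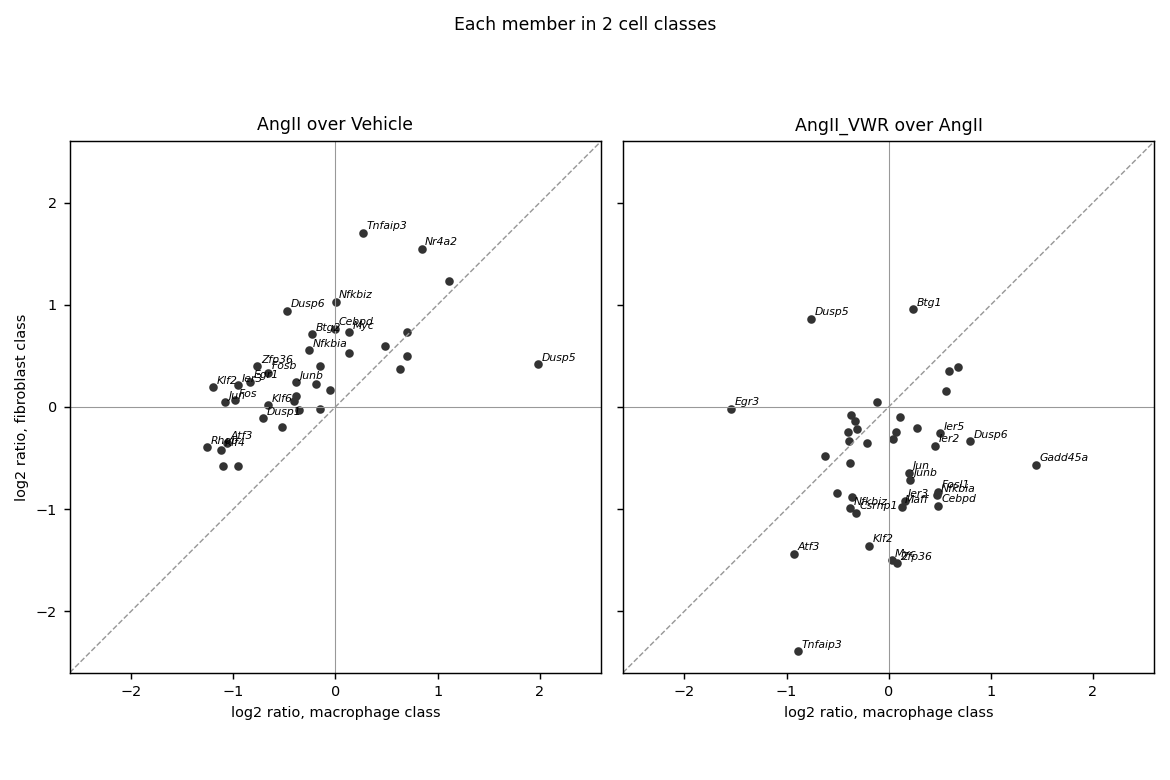
Log2 ratio (CPM + 1) of each member measured in both classes, in macrophages on the x axis and in fibroblasts on the y axis, for AngII over Vehicle (left) and AngII_VWR over AngII (right). Points above the dashed line of equal ratios have the larger ratio in fibroblasts, as 35 of 38 do on the left and 10 of 39 on the right.

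With wheel running, Tnfaip3, Zfp36, Myc, Atf3 and Klf2 were at least 2.57-fold lower in fibroblasts than in angiotensin II alone. In AngII_VWR against AngII 16 of 39 measured members were lower (4.64% of all genes) and 2 were higher (7.18%), with a median log2 ratio of -0.38 against 0.10 over all genes. Over 15 other settings of the processing that member median ran from -0.53 to -0.14. Among 34 members with at least 50 CPM, 15 were lower (5.81% of such genes) and 1 higher (5.26%). Tnfaip3, at 147 CPM in AngII and 27.2 in AngII_VWR, was 5.40-fold lower (5.15 to 5.67), and with 44.4 CPM the Vehicle library lay between them. Nfkbia (851 to 467 CPM) and Nfkbiz (398 to 199.8 CPM) were lower as well, which put all 3 NF-kappa-B regulators below AngII. In barcodes of 3000 to 10000 UMIs, Nfkbia (log2 ratio -0.45), Gadd45b (-0.20) and Jun (-0.33) were no longer past 1.5-fold. That range of depth held 1588 of 6590 AngII fibroblasts and 7614 of 12927 AngII_VWR fibroblasts, so it took unlike parts of the libraries. Jun was also lost on thinning to 2000 UMIs (-0.54). Zfp36, also known as tristetraprolin, had 1292 CPM in Vehicle, 1701 in AngII and 588 in AngII_VWR, 2.90-fold lower than in AngII (2.86 to 2.93). Myc had 128 and 44.5 CPM in AngII and AngII_VWR, and Csrnp1 77.5 and 37.3 CPM.

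The AP-1 group divided. Atf3 had 1552, 1215 and 448 CPM in the 3 libraries, so that AngII_VWR stood well below both others (2.71-fold below AngII, 2.68 to 2.74). Junb (3257 to 1988 CPM), Jun (2690.3 to 1723 CPM), Maff (156 to 78.7 CPM) and the low Fosl1 (17.7 to 9.54 CPM) were lower than in AngII. Fos, with 4701 and 4067 CPM, Fosb, with 1409 and 1456, and Jund, with 2947 and 2482, stayed within 1.5-fold. The zinc finger group divided too: Klf2 had 1384, 1579 and 615 CPM, 2.57-fold lower than in AngII, whereas Egr1 had 1655, 1965 and 2580.1 CPM and was highest with wheel running. Cebpb (734 to 398 CPM), a C/EBP factor of inflammation and differentiation, Cebpd (1918 to 982 CPM), Gadd45b (373 to 208 CPM) and Ier3 (880.5 to 464 CPM) made up the rest of the lower members. Nr4a2 and Nr4a3 kept 271 and 408 CPM, above their Vehicle levels. The higher members were Btg1, an antiproliferative partner of Btg2, with 54.8, 77.7 and 152 CPM across the 3 libraries, and Dusp5, low at 4.30, 6.07 and 11.9 CPM.

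Fibroblast makeup also differed, and its part in the ratios was not tested. Barcodes with at least 0.1% of UMIs in the progenitor fibroblast genes Dpp4, Cd55, Pi16 and Sema3c made up 79.4%, 51.4% and 47.7% of the class. Tnfaip3 differed by a log2 ratio of 1.62 between AngII and Vehicle among them and by 1.21 among the other fibroblasts. Between AngII_VWR and AngII it differed by -2.52 and -2.33. For Nr4a2, AngII over Vehicle gave 1.24 in either part. Among the progenitor-gene fibroblasts, 7 rather than 11 members were higher in AngII, and these were not all among the 11. Nr4a3 (0.30), Cebpd (0.47), Btg2 (0.38), Csrnp1 (0.23), Gadd45a (0.13) and Dusp6 (0.40) were below the limit there. Egr3 (0.67) and Nfkbia (0.61) were past it there though not in the whole class, and Gadd45b was at 0.79. Among the other fibroblasts Myc (0.31) was below the limit. The share over all genes is not given for either part.

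In macrophages with wheel running, most members were near their level in angiotensin II alone. Of 40 measured members 6 were lower in AngII_VWR than in AngII (5.05% of all genes) and 4 higher (15.4%). With at least 50 CPM the counts were 6 lower (6.44% of such genes) and 3 higher (8.81%) of 37 members. The median log2 ratio was 0.03 over the members and 0.18 over all genes, and relative to the median of all genes 2 members rather than 4 were higher and the median was -0.15. Egr3, a target of antigen receptor and calcium signalling, had 367, 332 and 113 CPM in the 3 libraries and was 2.92-fold lower than in AngII (2.79 to 3.06). Egr2 had 368, 288 and 187 CPM. Atf3 was lower by 1.90-fold, and Tnfaip3 had 345, 416 and 224 CPM. Dusp2 (101 to 55.7 CPM) and Dusp5 (62.6 to 36.5 CPM), both higher in AngII than in Vehicle, were lower again. Egr1 went the other way, with 1009 CPM in AngII and 1615 in AngII_VWR, and so did Dusp6, the cytoplasmic phosphatase of ERK, with 45.3 and 79.5 CPM, Rhob with 258 and 389, and the rare Gadd45a with 3.70 and 11.8. Rhob was only just counted and passed in 6 of 15 other settings (log2 ratio 0.40 to 0.62), and Egr1 fell short at 3000 to 10000 UMIs (0.55) and relative to the median gene (0.50). Fos, Jun, Klf2 and Klf4 kept within 1.5-fold of AngII and thus below their Vehicle levels. Atf3 and Tnfaip3 were the named members counted as lower in both large classes with wheel running, although macrophage Tnfaip3 was at -0.55 in barcodes of 3000 to 10000 UMIs.

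**Figure D3:**
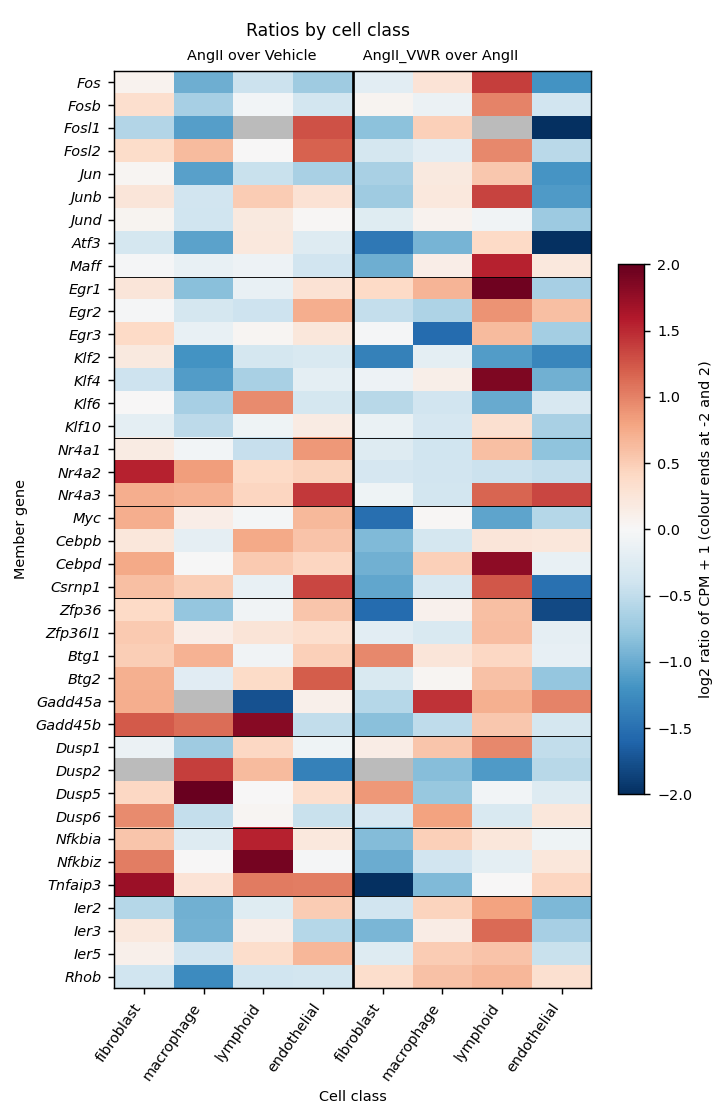
Log2 ratio (CPM + 1) of every member in 4 cell classes for AngII over Vehicle (left block) and AngII_VWR over AngII (right block), red higher and blue lower in the first-named library, grey where not measured, with lines between role groups. In neither block is a member past 1.5-fold in 1 direction in all of its classes. The lymphoid column of the right block is mostly red and the endothelial column mostly blue.

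The lymphoid and endothelial classes were small, and their intervals cover the counting of UMIs and not the spread among so few barcodes. In lymphoid barcodes 7 of 39 measured members were higher in AngII than in Vehicle (17.9%, near the 14.7% of all genes). Lower were 2 (5.13%, against 27.1%). All 3 NF-kappa-B regulators were counted as higher: Nfkbiz had 53.4 CPM in Vehicle and 203 in AngII, 3.81-fold more (2.87 to 5.07), Nfkbia 243 and 707 CPM, and Tnfaip3 260.5 and 534 CPM. Gadd45b had 91.8 and 326 CPM, 3.55-fold more (2.86 to 4.42). With wheel running 21 of 39 members were higher than in AngII (18.5%) and 4 lower (20.9%). Junb had 794, 1132 and 2902 CPM across the 3 libraries and Fos 445, 332 and 865, while Klf2, which maintains T cell quiescence and trafficking, had 785, 618 and 285. T cell reads outnumbered B cell reads in 157 of 212, 70 of 88 and 89 of 105 barcodes. Fibroblast RNA in this class stood at 2.76%, 1.43% and 6.77% of its fibroblast level. Monocyte markers summed to 196.7, 852 and 382 CPM and erythroid markers to 4111, 61.3 and 46.6 CPM in the lymphoid class, and their part in these ratios was not tested. At the rate of fibroblast RNA given above, the fibroblasts' own Egr1 would give 52.1% of the lymphoid Egr1 level in AngII_VWR, their Cebpd 60.0%, their Fos 31.8% and their Klf4 22.9%.

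In the endothelial class Fos and Jun were lower in AngII than in Vehicle and lower again with wheel running. In AngII against Vehicle 10 of 40 measured members were higher (16.2%) and 3 lower (16.9%), with Btg2 at 635 and 1463 CPM and Fos at 6164 and 3766. In AngII_VWR against AngII 17 of 40 were lower (15.7%) and 3 higher (18.9%). Klf2, the flow-induced factor of endothelium, had 4597, 3737 and 1511 CPM in the 3 libraries, Atf3 1319, 1104 and 228, and Zfp36 687, 1005 and 286. Per endothelial barcode the members took a median of 1.91% of UMIs in Vehicle and 2.10% in AngII, against pooled shares of 3.20% and 2.94%. Vehicle and AngII thus changed order between the median and the pooled share. Erythroid markers summed to 336, 4462 and 37.4 CPM in this class, and their part in these ratios was not tested.

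Members past 1.5-fold in every measured class were too rare among all genes for a count over 40 members to be read. In AngII against Vehicle 0 members were at least 1.5-fold higher in every measured class (0.42% of all genes) and 0 lower (0.661%). In AngII_VWR against AngII the count was again 0 higher (0.797%) and 0 lower (0.56%). Atf3 and Klf2 were lower in 3 of 4 classes there, and Gadd45a higher in 3 of 4, with a fibroblast log2 ratio of -0.57. In AngII against Vehicle, Nr4a3, Gadd45b and Tnfaip3 were each higher in 3 of 4 classes. Members past 1.5-fold in a single class were frequent, as they were among all genes. In AngII against Vehicle 18 members passed 1.5-fold in only 1 class (34% of all genes): Egr2, Nr4a1, Cebpb, Cebpd, Btg1, Dusp5, Dusp6, Nfkbia and Ier5 higher, and Fosb, Atf3, Egr1, Klf2, Zfp36, Dusp1, Ier2, Ier3 and Rhob lower. All 9 of these lower members were lower in macrophages. Of the higher ones, Cebpd and Dusp6 passed in fibroblasts and Btg1 and Dusp5 in macrophages. The others passed in the small classes only, Cebpb and Nfkbia in the lymphoid and Egr2, Nr4a1 and Ier5 in the endothelial class. Egr2 had only 9 UMIs there in Vehicle and 17 in AngII. In AngII_VWR against AngII 13 members passed in only 1 class (35.5%): Fosb, Fosl2, Zfp36l1, Btg1, Dusp1 and Dusp6 higher, and Jund, Klf6, Klf10, Cebpb, Gadd45b, Nfkbia and Nfkbiz lower. Of these, Fosb, Fosl2, Zfp36l1, Dusp1 and Klf6 passed in the small lymphoid class and Jund and Klf10 in the small endothelial class. Dusp6 passed in macrophages and the rest in fibroblasts. Members higher in 1 class and lower in another numbered 4 in AngII against Vehicle (8.93% of all genes) and 15 in AngII_VWR against AngII (7.31%), Fos, Junb, Egr1 and Zfp36 among the latter. For these 4 the opposite calls lay in the small lymphoid and endothelial classes or between one of them and a large class. Junb, Jund, Maff, Egr3, Klf10 and Zfp36l1 passed in no class in the first comparison, and Nr4a2 and Ier5 in none in the second.

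The members were not spread evenly over barcodes of a class. Per barcode they took a median of 3.02% of UMIs in Vehicle fibroblasts, 3.66% in AngII and 2.56% in AngII_VWR. In Vehicle, bins of 0.25% width held 11.2% of fibroblasts at a share of 0.25 to 0.5% and 1.52% at 1.25 to 1.5%. Between 3% and 4% lay 23.7% of fibroblasts, a mean of 5.92% per bin of that width. In AngII the same 0.25% bins held 6.60% and 1.17%, and 23.3% lay between 3% and 4%, a mean of 5.82% per bin. Both libraries thus had a peak below 1% apart from the main one. Below 1% lay 1898 Vehicle fibroblasts (25.6%, exact binomial interval 24.6 to 26.6), 1025 in AngII (15.6%, 14.7 to 16.5) and 1371 in AngII_VWR (10.6%, 10.1 to 11.1), the limit having been set after the distribution was seen. In AngII_VWR the 0.25% bins held 2.82% and 4.70%, and 22.5% lay between 3% and 4%, a mean of 5.63% per bin, with no such valley. Below 1% also lay 275 Vehicle macrophages (9.85%), 112 in AngII (5.43%) and 265 in AngII_VWR (7.68%).

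Barcodes with few member UMIs differed in other RNAs as well, and not in the same way in both classes. In Vehicle fibroblasts their median depth was 5834 UMIs against 12391.5 in the rest, and ribosomal protein genes took 3.29% of UMIs against 12.2%. Malat1 and Neat1 took 2.29% against 1.28%, and the mitochondrial share was 2.28% against 1.60%. The fibroblast genes that define the class were alike, at 2.18% and 2.06%. In AngII the ribosomal share was 7.44% against 10.7% and in AngII_VWR 9.92% against 11.1%, so the contrast was widest in Vehicle. Vehicle macrophages under 1% went the other way, with a ribosomal share of 17.9% against 8.38% and Malat1 and Neat1 at 0.172% against 2.24%. In AngII macrophages these shares were 12.0% against 9.52% and 0.752% against 1.27%. In AngII_VWR macrophages they were alike, at 8.28% against 8.94% and 1.73% against 1.78%, so the opposite pattern was not seen in that library. Among fibroblasts with 5 to 10% mitochondrial UMIs the median member share was 0.444% in Vehicle, 0.311% in AngII and 2.33% in AngII_VWR. Within 3000 to 10000 UMIs per barcode, a common range of depth, fibroblast medians were 3.13%, 3.58% and 2.74%, in the same order of libraries as at full depth. With barcodes under 5% ribosomal protein UMIs left out, an alternative added after seeing the data, 10 members were higher in AngII fibroblasts and 2 lower, with Tnfaip3 at a log2 ratio of 1.65. The macrophage counts stayed at 7 higher and 14 lower. For this filter the share over all genes is not given.

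**Figure D4:**
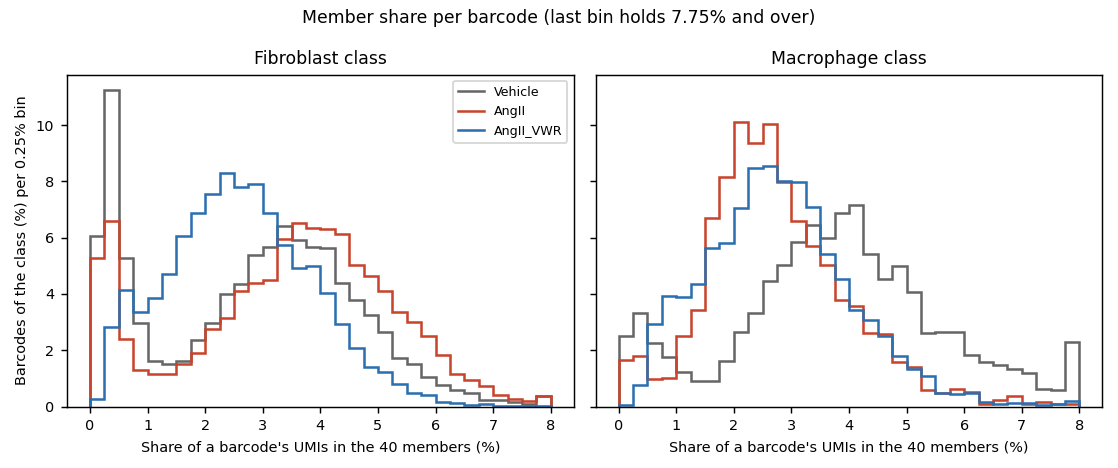
Distribution over barcodes of the share of UMIs held by the 40 members (x axis, %), as the percentage of barcodes of the class per 0.25% bin, 1 line per library, in fibroblasts (left) and macrophages (right). Vehicle and AngII fibroblasts show a separate peak under 1%, and Vehicle macrophages lie to the right of the others, with a median of 3.82% against 2.61% and 2.69%.

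The rest of the pathway was read from lists of related genes, chosen with earlier results of these data known. Their shares are set beside those of all genes as description and are not independent support. Of 15 upstream kinases and factors (Srf, the Elk proteins, MAP kinases, Creb1 and the Rel family), 1 was higher in AngII fibroblasts (6.67%, against 6.8% of all genes) and 1 in AngII macrophages (against 6.18%), in both Nfkb1, the precursor of p50, which had 226, 390.4 and 213 CPM in fibroblasts and 541, 1019 and 593 in macrophages. Of 27 other early and secondary genes 11 were higher (40.7%, against 6.8% of all genes) and 2 lower in AngII fibroblasts, and 15 of 26 were lower (57.7%, against 4.64%) and 1 higher with wheel running. Il6, a cytokine made by activated adventitial fibroblasts, had 165, 613 and 81.5 CPM in the 3 libraries, Ptgs2, the inducible cyclooxygenase, 205, 483 and 165, Socs3, the feedback inhibitor of the Il6 receptor, 549, 726 and 125, and Irf1 195, 350.1 and 84.3. These followed the order seen for Tnfaip3, with AngII highest and AngII_VWR lowest. In macrophages 6 of 27 were higher (22.2%, against 6.18%) and 8 lower (29.6%, against 9.59%) in AngII, with Thbs1 at 4.94, 62.5 and 112 CPM and Ccn1, a matricellular target of YAP and serum response factor, at 245, 54.0 and 79.1. With wheel running 5 were higher there (18.5%, near the 15.4% of all genes) and 7 lower (25.9%, against 5.05%).

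Among 15 further feedback genes (other Dusp, Sprouty and Spred proteins and NF-kappa-B inhibitors), 3 of 14 measured were higher (21.4%, against 6.8% of all genes) and 0 lower in AngII fibroblasts, and 4 of 13 were lower (30.8%, against 4.64%) and 0 higher with wheel running. Nfkbie, I-kappa-B epsilon, was higher in AngII in both classes, with 5.12, 11.5 and 3.96 CPM in fibroblasts and 30.5, 73.0 and 32.3 in macrophages. In macrophages 2 of 12 were higher (16.7%, against 6.18%) and 2 lower (16.7%, against 9.59%) in AngII, and 1 higher (8.33%, against 15.4%) and 5 lower (41.7%, against 5.05%) with wheel running. Heat shock genes were lower for 5 of 11 in AngII fibroblasts (45.5%, against 5.03%) with 0 higher. With wheel running 1 was lower in fibroblasts (against 4.64% of all genes) and 1 higher in macrophages (against 15.4%). Of 5 glucocorticoid-induced genes, 3 were higher (against 7.18% of all genes) and 1 lower with wheel running in fibroblasts, and 4 were higher in macrophages (against 15.4%). Tsc22d3, known as GILZ, had 155, 113 and 345 CPM in fibroblasts and 509.7, 342 and 631 in macrophages, and Fkbp5, the immunophilin that dampens the glucocorticoid receptor, 165, 195 and 329 and then 229, 224 and 497. Of 10 reference genes 0 passed 1.5-fold in AngII against Vehicle in either class, and 1, Polr2a, was higher in both with wheel running.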

How the data were processed

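Single-cell 3′ RNA-seq was deposited as 1 matrix of counts per library. Per the file headers, the authors counted UMIs with Cell Ranger 7.0.1 (Vehicle, AngII) and 7.1.0 (AngII_VWR), against mm10 per the submitters' processing notes. Intron counting and ambient RNA removal are not given in the sources used here. Libraries held 15093, 10515 and 19633 barcodes and 165977330, 141570158 and 105679209 UMIs. Barcodes needed 300 genes and 500 UMIs, and those above 10% mitochondrial UMIs were dropped. Barcodes meeting more than 1 class definition (189, 163 and 550) were left out as possible doublets. Scrublet served as an alternative only, since its own threshold called 0 barcodes in AngII_VWR. UMIs were summed per class and library and scaled to CPM in Python 3.11.15. Intervals are exact Poisson (levels), exact conditional binomial (ratios) and exact binomial (shares), at 95%, and cover counting error only. A ratio is log2 of CPM + 1. A gene was measured with at least 5 CPM in either library and 10 UMIs over both. Members with at least 50 CPM and a 1.5-fold difference in fibroblasts or macrophages are named with their values. The ratio and interval code was tested on simulated data. The lymphoid and endothelial definitions were chosen here. The members, lists and limits were chosen with earlier results of these data known. Promoters are RefSeq's, and exon ends of the printed genes come from GENCODE M21.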

Additional observations from a re-analysis of the deposited data

Results flagged for a closer look

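Some members lay on opposite sides of 0 in fibroblasts and macrophages of the same library pair, by at least 1.2-fold in each class. With 1 library per group these differences between classes were not tested. In AngII over Vehicle the log2 ratio of Fosb was 0.33 in fibroblasts and -0.66 in macrophages, that of Zfp36 0.40 and -0.77, and that of Dusp6 0.94 and -0.47. In AngII_VWR over AngII the fibroblast and macrophage ratios were -0.97 and 0.48 for Cebpd, -0.86 and 0.47 for Nfkbia, and 0.86 and -0.76 for Dusp5. Dusp6 changed sides in that pair, with -0.34 in fibroblasts and 0.80 in macrophages. The remaining members were rare: Fosl1, with -0.83 and 0.48, and Gadd45a, with -0.57 and 1.44, both at low levels in these classes.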

How the results depend on the processing

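The settings varied numbered 15: class definitions, depth and mitochondrial limits, doublet handling, pseudocounts, scaling, thinning, a filter on low values and free RNA. Over them, members higher in AngII fibroblasts ranged from 9 to 15, members lower in AngII_VWR fibroblasts from 14 to 18, and members lower in AngII macrophages from 13 to 14. Of the named members 7 of 9 (AngII, fibroblasts), 13 of 16 (AngII_VWR, fibroblasts), 14 of 20 (AngII, macrophages) and 5 of 9 (AngII_VWR, macrophages) stayed past 1.5-fold in all 15, with no reversal. The depth range of 3000 to 10000 UMIs ended the calls named in the report and, in AngII macrophages, those of Dusp1 (-0.53) and Zfp36 (-0.58), and in AngII fibroblasts that of Cebpd (0.58). The 0 members lower in AngII fibroblasts became 1 with class definitions at 2% or at 0.5%, with 1000 genes and 2000 UMIs, with barcodes of more than 1 class kept and with CPM + 0.1, and 2 with the highest Scrublet scores removed. They also became 2 in 3 alternatives chosen after seeing the data: fibroblasts with progenitor genes under 0.1%, barcodes with at least 5% ribosomal protein UMIs, and barcodes with at least 1% of UMIs in the members. The count of members higher in AngII went from 11 to 7 among fibroblasts with progenitor genes at or over 0.1%, with Egr3 (0.67) and Nfkbia (0.61) new to it. Members higher in AngII_VWR fibroblasts went from 2 to 5 at 3000 to 10000 UMIs. In macrophages, members higher in AngII went from 7 to 0 where resident genes were under 0.1%, with Fosl2 at -0.14, Nr4a2 at -0.037 and Btg1 at -0.19. Members higher in AngII_VWR macrophages went from 4 to 2 relative to the median of all genes. The median log2 ratio of the members, macrophage class, AngII_VWR over AngII, was 0.03 and became -0.0065 with doubled class definitions, -0.023 with barcodes of more than 1 class kept, -0.11 at 3000 to 10000 UMIs, -0.15 relative to the median of all genes and -0.0058 where resident genes were under 0.1%. All splits by resident or progenitor genes were chosen after seeing the data. Counts in other settings or splits are given without the share over all genes. The cause was not tested. No paired analysis was possible because each group is 1 library. The lymphoid and endothelial classes rest on 73 to 212 barcodes each, and Fosl1 had 0 UMIs in AngII_VWR endothelial barcodes.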
